A study of Mus musculus with 4 samples.

Results

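The CCAAT/enhancer-binding protein (C/ebp) family was followed in 3T3-L1 cells, a mouse preadipocyte line that hormones induce to form adipocytes. Its members were taken by gene name, as every non-control probe named Cebpb, Cebpd, Cebpa, Cebpg, Cebpe, Cebpz or Ddit3. Of these 7 genes, 6 had at least 1 probe, which gave 13 probes among the 41174 on the array. No probe carried the name or RefSeq accession of Cebpe, the granulocyte member, so that gene has no value here.

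Total RNA was taken on day 2 of differentiation from 4 cultures, each hybridized with 1 dye to 1 Agilent Whole Mouse Genome array. The cells had received 0.1% DMSO, 100 μg/mL bilberry extracts, 100 nM delphinidin or 100 nM cyanidin. All 4 cultures, the DMSO control included, were in initiation medium with 10 μg/mL insulin, 1 μM dexamethasone and 0.5 μM IBMX, and the treated cultures also contained the DMSO vehicle. The question was how bilberry extracts and these anthocyanidins alter gene expression early in adipocyte differentiation. With 1 array per condition, no difference here was checked against replicates or has a p-value. The extract and the pure compounds were given in different dose units. The 3 comparisons with DMSO share the DMSO array, so an error of that array enters all of them. The headers gave 1 scan time for all 4 arrays, and array position and condition cannot be told apart.

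C/ebp proteins are basic leucine zipper factors that bind DNA as dimers, with themselves or with each other. In 3T3-L1 cells the induction medium switches on C/ebpβ and C/ebpδ early: dexamethasone acts through the glucocorticoid receptor and IBMX raises cAMP. These factors then activate the genes of C/ebpα and Pparγ, which together maintain the adipocyte programme. C/ebpγ and Ddit3 (also called Chop) dimerize with the other members, C/ebpγ without an activation domain of its own and Ddit3 mainly after stress. Cebpz carries the family's name but encodes no leucine zipper factor; it belongs to a family of nucleolar proteins of ribosome assembly. Cebpb, Cebpd and Cebpa have no introns, and Cebpb and Cebpa messages are each translated into long and short proteins, which an array of RNA cannot tell apart.

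The promoters of 3 members are shown because the inducers of this medium and of stress act on them. They are RefSeq sequences of GRCm38.p6, from 250 bases before the annotated start up to it, on the strand of the gene, with the search letters in capitals. These are TGACG, a cAMP response half-site, on either strand in Cebpb. They are the TATA box TATAAA in Cebpa. In Ddit3 they are TGACTCA, an AP-1 site, and the CCAAT box, which lies there on the opposite strand.
Cebpb: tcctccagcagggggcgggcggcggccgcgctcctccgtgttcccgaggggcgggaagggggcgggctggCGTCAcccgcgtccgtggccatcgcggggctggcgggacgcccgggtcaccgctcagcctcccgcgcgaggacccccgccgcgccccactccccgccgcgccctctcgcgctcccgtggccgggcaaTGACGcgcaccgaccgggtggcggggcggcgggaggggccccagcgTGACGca
Cebpa: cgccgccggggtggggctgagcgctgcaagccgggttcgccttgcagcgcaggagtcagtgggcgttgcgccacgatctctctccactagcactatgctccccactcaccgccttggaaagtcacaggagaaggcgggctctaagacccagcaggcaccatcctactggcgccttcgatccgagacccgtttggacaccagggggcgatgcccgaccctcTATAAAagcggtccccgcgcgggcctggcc
Ddit3: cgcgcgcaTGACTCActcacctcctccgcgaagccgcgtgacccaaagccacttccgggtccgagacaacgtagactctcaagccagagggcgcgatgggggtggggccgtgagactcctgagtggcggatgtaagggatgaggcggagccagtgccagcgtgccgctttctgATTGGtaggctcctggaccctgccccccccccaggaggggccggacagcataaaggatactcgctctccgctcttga
The Cebpb window lies at chr2:167688665-167688914 (plus strand), the Cebpa window at chr7:35119043-35119292 (plus strand) and the Ddit3 window at chr10:127290543-127290792 (plus strand). The Cebpb window held 3 cAMP response half-sites, which began 180, 53 and 7 bases before the start; 0.688% of the 32851 promoter windows of this length held 3 or more and 17.8% held at least 1. It also held 5 GC boxes (GGGCGG on either strand, 2 of them overlapping, found in 32.7% of all windows), and 81.6% of its bases were G or C, against a median of 52.4%. The TATA box of Cebpa (TATAAA on either strand) began 30 bases before the start, and 12.4% of all windows held one. In Ddit3 the AP-1 site began 242 bases before the start (4.46% of all windows) and the CCAAT box 77 bases before it (33.8% of all windows). The window of Cebpg, which was in the same table, held 2 CCAAT boxes. The C/EBP palindrome TTGCGCAA was in none of the 4 windows and in 0.164% of all windows. All motifs were searched on both strands, and a match is a run of letters, not a shown binding site.

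Signals were divided by the 75th percentile of each array and are given as log2 scaled signal, on which 0 is that percentile. This percentile was 861 for DMSO, 576 for bilberry, 1009 for delphinidin and 1016 for cyanidin. The spike-in control RNAs, added from outside the cells, went the other way on the bilberry array, where their median log2 signal was 0.96 above DMSO (-0.02 with delphinidin and 0.01 with cyanidin). Scaling to them in place of the percentile shifted the median ratio of all probes by -1.54 with bilberry extracts, 0.26 with delphinidin and 0.23 with cyanidin, and the part of this in the results was not tested. As every bilberry ratio dropped by 1.54 under spike-in scaling, the positive bilberry ratios below that size turned negative there. Of the member ratios, 4 of 12 changed sign with delphinidin and 0 of 13 with cyanidin. Probes well above background by the scanner software's test numbered 23143 to 25302 per array. The error given below is the software's own estimate for single spots, which came to between 0.20 and 0.21 on a log2 ratio of the members. It says nothing of the spread between cultures. This estimate was nearly the same for every member spot (0.144 to 0.156) and larger than the SD of replicate spots (0.031 to 0.038). A ratio below the software error can therefore still exceed the spread of replicate spots.

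Each of the 13 member probes was well above background with every treatment and with DMSO, and 12 had an unmarked spot on all 4. With bilberry extracts, 2 of 13 member probes were past 2-fold, both of them Cebpz probes with lower signal; 13.9% of all probes on the array were past 2-fold in this comparison, and 7.39% were lower. With delphinidin 0 of 12 and with cyanidin 0 of 13 were past 2-fold, beside 6.88% and 7.37% of all probes. Over only those probes that were well above background on every array, as the members were, the shares past 2-fold were 11.1%, 2.39% and 2.29%. For the gene lists below, the shares over 17011 measured genes were 6.71% higher and 9.93% lower with bilberry, 3.11% and 3.84% with delphinidin, and 2.56% and 4.93% with cyanidin. The family thus had no more probes past 2-fold than the array at large in the pure compounds, and its bilberry count came from 1 gene. That count rested on the scaling, since under spike-in scaling, which shifted all bilberry probes down, 12 of the 13 member probes, from all 6 genes, were past 2-fold lower with bilberry. The median ratio of the member probes was -0.14 with bilberry extracts, 0.14 with delphinidin and 0.15 with cyanidin, where probes well above background had 0.14, -0.03 and -0.01. This median counts probes, of which Cebpz gave 4 and Cebpg 3. By gene, the mean bilberry ratio over probes was 0.42 for Cebpb, 0.30 for Cebpd and 0.48 for Cebpa. It was -0.15 for Cebpg, -0.47 for Ddit3 and -1.18 for Cebpz.

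**Figure D1:**
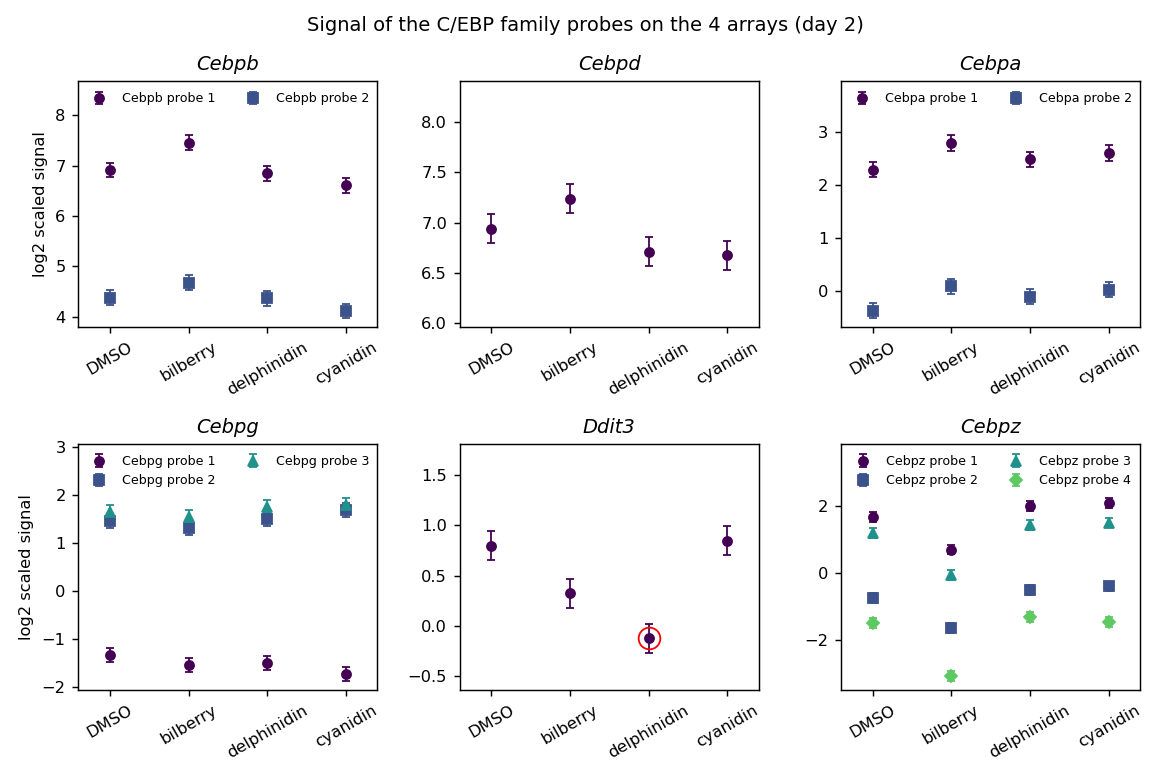
Log2 scaled signal of each C/EBP family probe on the DMSO, bilberry, delphinidin and cyanidin arrays, 1 array each. Bars are the scanner software's error of the spot, and the red ring is the Ddit3 spot that the software marked for its local background. The 4 Cebpz probes were lowest on the bilberry array, and both Cebpa probes were lowest on the DMSO array.

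**Figure D2:**
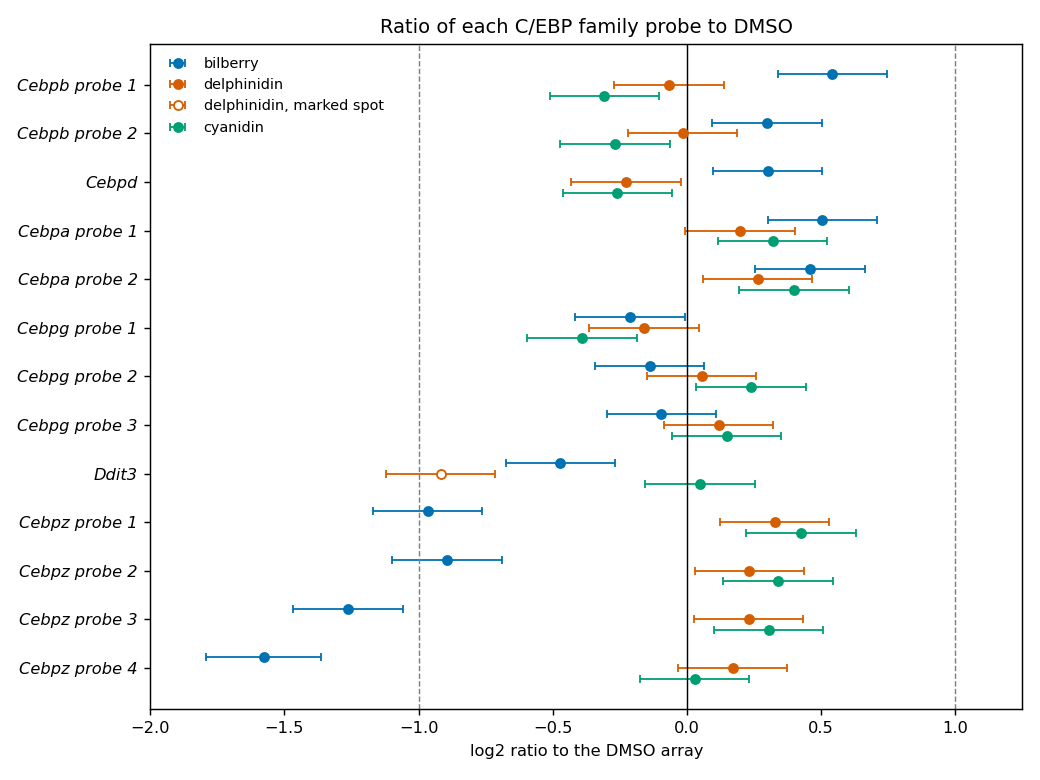
Log2 ratio to the DMSO array for the 13 member probes with bilberry, delphinidin and cyanidin; bars are the software's error of the ratio and dashed lines mark 2-fold. Cebpz probes 3 and 4 with bilberry are beyond the dashed line, and the open point is the marked Ddit3 spot.

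The early activators Cebpb and Cebpd were abundant on every array. Cebpb probe 1, nearest the 3′ end of the gene (chr2:167381552-167381610 on mm8), was at 6.91 with DMSO, 7.45 with bilberry extracts, 6.85 with delphinidin and 6.61 with cyanidin on the log2 scaled signal. Probe 2, 537 bases further 5′ (chr2:167381014-167381073), was at 4.38, 4.68, 4.36 and 4.11 in the same order. Both probes were thus highest on the bilberry array and lowest on the cyanidin array. Their log2 ratios to DMSO were 0.54 and 0.30 with bilberry, -0.07 and -0.02 with delphinidin and -0.31 and -0.27 with cyanidin. The bilberry ratio of probe 1 was 2.65 times its software error, that of probe 2 was 1.46 times and those with cyanidin were 1.51 and 1.32 times. Before scaling, probe 1 read 103791 with DMSO and 101072 with bilberry, which is no increase; the scaled difference follows from the lower percentile of the bilberry array. Set against the 1000 probes of most similar signal, the bilberry ratios were 0.20 and 0.01, and they were below 0 under spike-in scaling (-0.998 and -1.24). Normexp background correction gave -0.12 and -0.34, from a fit with an outlying background mean on the bilberry array (-345), and 0.48 and 0.23 in a refit without spots of marked local background. The delphinidin ratios, near 0, turned above it under spike-in scaling (0.19 and 0.24), and lay at most 0.04 above it under 1 other alternative at probe 1 and 5 at probe 2. As this was RNA of whole cultures, fewer cells of a type and less RNA per cell cannot be told apart.

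Cebpd, the glucocorticoid-responsive partner of Cebpb, had 1 probe (chr16:15801944-15802003 on mm8). It was at 6.94 with DMSO, 7.24 with bilberry extracts, 6.71 with delphinidin and 6.68 with cyanidin. As for Cebpb, the bilberry array was highest and the cyanidin array lowest, but the delphinidin and cyanidin levels differed by 0.03, well within spot error. The ratios to DMSO were 0.30, -0.23 and -0.26, each 1.12 to 1.47 times the software error. Before scaling, the probe read 105540 with DMSO and 86980 with bilberry. The bilberry ratio was -0.03 under quantile normalization, -0.04 against probes of like signal, -0.30 under the first normexp fit (0.30 in the refit) and -1.24 under spike-in scaling, and the delphinidin ratio was 0.03 under spike-in scaling, so the direction of these differences rested on the scaling.

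Genes that act upstream of these factors were mostly within 2-fold of DMSO. Of 17 measured genes upstream of Cebpb and Cebpd (hormone and cytokine receptors, Jak and Stat members, Creb1 and others), 1 was past 2-fold with bilberry and 0 with either anthocyanidin, where 16.6%, 6.95% and 7.48% of all 17011 measured genes were past 2-fold. The gene past 2-fold was Jak2, a kinase of cytokine receptors, at -1.29 with bilberry extracts, -0.78 with delphinidin and -0.49 with cyanidin. Among the others, named after their values were seen, Insr, the insulin receptor, was at -0.94, -0.54 and -0.45, and Lifr, a cytokine receptor, at 0.74, 0.55 and 0.49. Nr3c1, the glucocorticoid receptor that dexamethasone binds, was at 0.42, 0.15 and 0.14, and below 0 with bilberry under spike-in scaling. With every bilberry ratio shifted by -1.54 under that scaling, most genes of this list were past 2-fold lower with bilberry.

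Cebpa, the late activator, was higher than DMSO at both probes in all 3 treatments on the scaled signal. Before scaling, bilberry read below DMSO, at 4002 against 4216 for probe 1 and 612 against 666 for probe 2. As for Cebpb, the scaled bilberry difference follows from the lower percentile of that array. Probe 1 (chr7:34830258-34830317 on mm8) was at 2.29 with DMSO, 2.80 with bilberry extracts, 2.49 with delphinidin and 2.61 with cyanidin. Probe 2, 1156 bases further 5′ (chr7:34829102-34829161), was at -0.37, 0.09, -0.11 and 0.03. The order of the arrays was the same at both probes: bilberry, cyanidin, delphinidin, DMSO. The ratios were 0.50 and 0.46 with bilberry, 0.20 and 0.26 with delphinidin and 0.32 and 0.40 with cyanidin, which is 0.97 to 2.47 times the software error. Neighbours in the order were closer than that error, except delphinidin and DMSO at probe 2, which were 1.29 times the error apart. All of them were further apart than the SD of replicate spots (0.031 to 0.038). Under spike-in scaling the bilberry ratios were -1.03 and -1.08, and under the first normexp fit probe 1 was at -0.04 (0.45 in the refit), while the delphinidin and cyanidin ratios stayed above 0 under every alternative run (0.16 to 0.63).

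Genes that C/ebp factors activate in adipocytes did not move as 1 group. Of 25 measured adipocyte targets, 0 were past 2-fold higher and 4 lower with bilberry, and 1 was higher and 0 lower with each anthocyanidin. The 4 were Mrap, a melanocortin receptor partner (-2.03), Slc2a4, the insulin-regulated glucose transporter Glut4 (-1.54), Retn, the adipokine resistin (-1.08), and Adipoq, the adipokine adiponectin (-1.07). With delphinidin these genes were at -0.91, -0.61, -0.08 and -0.19 in that order, and with cyanidin at -0.63, -0.28, 0.11 and 0.23.

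Cfd, the adipocyte protease adipsin, was the gene past 2-fold with the anthocyanidins, at 0.80 with bilberry extracts, 1.15 with delphinidin and 1.75 with cyanidin. Pparg, the nuclear receptor that C/ebpβ and C/ebpδ induce, was at 0.15, 0.31 and 0.31, Klf5, an early factor of the same cascade, at 0.72, 0.48 and 0.39, and Fabp4, the fatty acid carrier, at -0.95, -0.19 and -0.04. The median over the list was 0.10, 0.08 and 0.23, beside 0.15, -0.04 and -0.02 over all genes. Under spike-in scaling 22 of the 25 were past 2-fold lower with bilberry, since all probes shifted down.

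Cebpg, which dimerizes with the other members without activating by itself, had 3 probes that did not move together. Probe 1, at the 3′ end (chr7:34755658-34755717 on mm8, minus strand), was at -1.34 with DMSO, -1.55 with bilberry extracts, -1.50 with delphinidin and -1.73 with cyanidin. Probe 2 (chr7:34756492-34756551) was at 1.46, 1.32, 1.51 and 1.70. Probe 3 (chr7:34759218-34759277) was at 1.65, 1.55, 1.77 and 1.80. Probes 2 and 3 were thus highest with cyanidin, where probe 1 was lowest. With cyanidin the ratios were -0.39, 0.24 and 0.15, and with bilberry -0.21, -0.14 and -0.10. Across the gene, the cyanidin ratio of probe 3 exceeded that of probe 1 by 0.54, a comparison chosen after seeing the data, and with delphinidin by 0.28 and with bilberry extracts by 0.12. Of genes whose outermost probes lay 2001 to 10000 bases apart, 96.0%, 88.5% and 61.9% had a lower difference in that order. No Cebpg ratio to DMSO was more than 1.92 times its software error. With bilberry probe 1 was at 0.45 under the first normexp fit, at -0.12 in the refit and at 0.01 without background subtraction, and with delphinidin at 0.10 under spike-in scaling.

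Ddit3, the stress-induced member that can keep its C/ebp partners from their usual binding sites, had 1 probe, whose coordinates span 304 bases (chr10:126698411-126698714 on mm8). It was at 0.80 with DMSO, 0.32 with bilberry and 0.84 with cyanidin. The delphinidin spot, at -0.12, was marked by the software as an outlier in local background. That background, 243, lay within the 242 to 246 of this probe on the other arrays. Bilberry was lower than DMSO and cyanidin, which differed by 0.05. The bilberry ratio was -0.47, or 2.31 times the software error, and it lay between -0.61 and -0.42 under all alternatives but spike-in scaling (-2.01). With the marked spot kept, the delphinidin ratio was -0.92 to DMSO and -0.97 to cyanidin, values that rest on that spot.

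Other genes of the integrated stress response, the pathway in which Ddit3 is induced by Atf4, were partly higher. Of 37 measured genes, 8 were past 2-fold higher and 1 lower with bilberry, 3 were higher with delphinidin and 0 with cyanidin. Among the 35 genes well above background on all 4 arrays, 6 were higher and 1 lower with bilberry and 1 was higher with delphinidin. Phgdh and Psat1, enzymes of serine synthesis, were at 1.40 and 1.08 with bilberry, 1.07 and 0.51 with delphinidin and 0.57 and 0.65 with cyanidin. Sesn2, a stress-induced regulator of growth signaling, was at 1.18, 0.51 and 0.43.

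Chac1, a glutathione-degrading enzyme, was at 1.17 with bilberry extracts, 0.61 with delphinidin and 0.40 with cyanidin, Trib3, a pseudokinase that Ddit3 and Atf4 induce, was at 1.13, 0.62 and 0.57, and Shmt2, a mitochondrial one-carbon enzyme, at 1.04, 0.68 and 0.49. Nupr1, a stress-responsive nuclear protein, was the gene lower (-1.22 with bilberry). Atf4 itself was at -0.36, 0.22 and 0.29. The remaining genes past 2-fold higher with bilberry and with delphinidin, Car6 and Slc7a11, were not well above background on all 4 arrays and get no fold. The median over the list was 0.30, 0.22 and 0.29. With bilberry 5 were higher under quantile normalization and 0 under spike-in scaling, so the bilberry count rested on the scaling, and Ddit3 was not among the genes that were higher.

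Cebpz was the member that differed most from DMSO, with bilberry extracts and at all 4 probes. Probe 1, at the 3′ end (minus strand, coordinates given as chr17:78824047-78824056 on mm8, a span of 10 bases), was at 1.67 with DMSO, 0.70 with bilberry extracts, 1.99 with delphinidin and 2.09 with cyanidin. Probe 2 (chr17:78824312-78824371) was at -0.74, -1.64, -0.51 and -0.40. Probe 3 (chr17:78825804-78826717, a span of 914 bases) was at 1.20, -0.06, 1.43 and 1.51.

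Probe 4, 15979 bases from probe 1 towards the 5′ end (chr17:78840026-78840085), was at -1.50 with DMSO, -3.07 with bilberry extracts, -1.33 with delphinidin and -1.47 with cyanidin. At every probe the bilberry array was the lowest, and the delphinidin and cyanidin arrays lay at or above DMSO. The bilberry ratios were -0.97, -0.90, -1.26 and -1.58 from probe 1 to probe 4, a level 1.95, 1.86, 2.40 and 2.99 times lower than with DMSO and 4.36 to 7.40 times the software error. Of probes well above background, 7.27%, 8.33%, 4.25% and 2.33% had a lower bilberry ratio, so values of this size were uncommon on that array but not rare. Probes 3 and 4 lay past the 2-fold threshold and probes 1 and 2 just inside it.

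With delphinidin the 4 Cebpz ratios were 0.33, 0.23, 0.23 and 0.17, and with cyanidin 0.42, 0.34, 0.30 and 0.03, which is up to 2.08 times the software error. The bilberry ratios stayed below 0 under all alternatives except that probe 4, the dimmest, was at 0.38 under normexp, in which the fitted background mean of the bilberry array was -345. A refit without spots of marked local background gave a mean of -5.65 and Cebpz ratios of -1.21 to -0.69. Cebpz ranged from -1.52 to -0.82 under quantile normalization, from -1.71 to -1.05 against probes in nearby rows of the array, from -1.06 to -0.33 without background subtraction and from -3.12 to -2.43 under spike-in scaling. Without background subtraction probe 4 was at -0.03 with cyanidin.

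**Figure D3:**
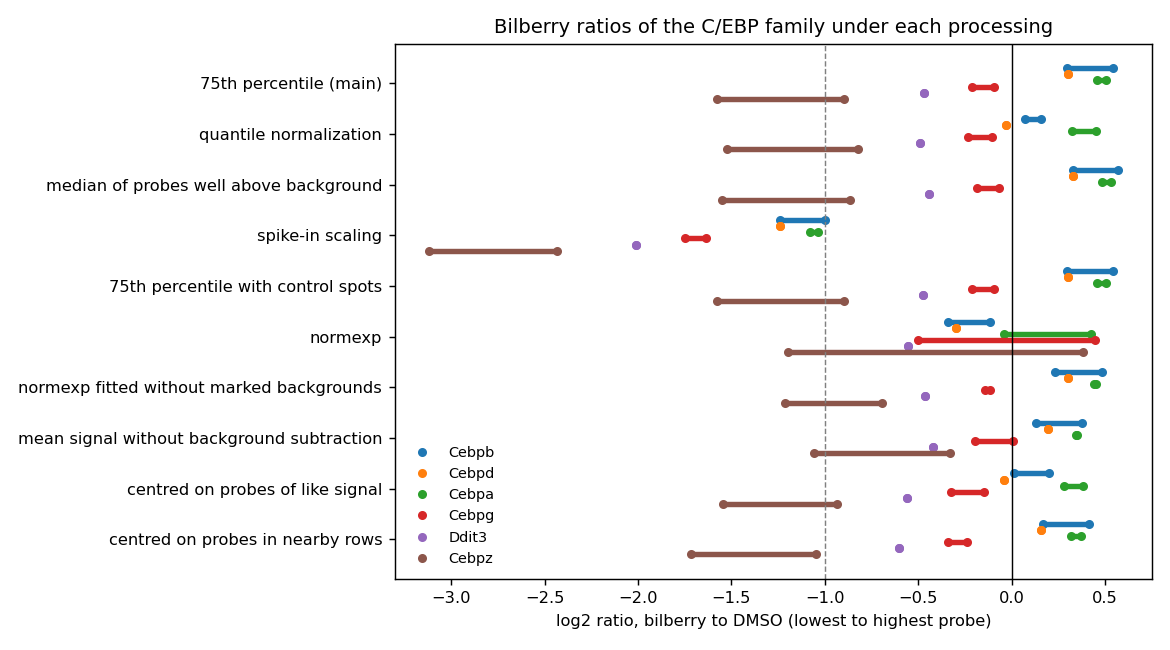
Log2 ratio of bilberry to DMSO for each C/EBP family gene under each processing; the 2 ends of a bar are the lowest and highest probe of the gene, and the dashed line marks 2-fold lower. Cebpz (brown) is left of 0 throughout except for the normexp bar, which reaches 0.38. Cebpb, Cebpd, Cebpa and Cebpg also have values on the other side of 0 under some processing, and Ddit3 stays left of 0.

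The probes at the 2 ends of Cebpz differed in their bilberry ratio, a comparison chosen after seeing the data, but the direction of the difference rested on the background correction. The most 5′ probe lay 0.61 below the most 3′ probe with bilberry, 0.16 below it with delphinidin and 0.40 below it with cyanidin. The same difference was taken in the 4954 genes with 2 or more mapped probes well above background and unmarked on all 4 arrays. Their outermost such probes lay at most 200000 bases apart. The bilberry median went from -0.02 for probes within 500 bases to 0.16 for probes 10001 to 50000 bases apart and 0.41 beyond. Of the 1239 genes at the distance of Cebpz, 7.99% had a lower value with bilberry extracts, 33.7% with delphinidin and 24.9% with cyanidin. The Cebpz difference rests on dim probe 4, whose processed signal with bilberry was 68.4. With bilberry it was 0.55 without background subtraction, 0.01 under the refitted normexp and above 0 under the first normexp fit, and -0.61 to -0.37 under the other alternatives, whereas with delphinidin and with cyanidin it was below 0 under all of them. The other genes were not recomputed under these alternatives. These distances are in the genome and include introns. Cebpa, with 1156 bases between its probes, was at -0.05, and Cebpb at -0.24.

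**Figure D4:**
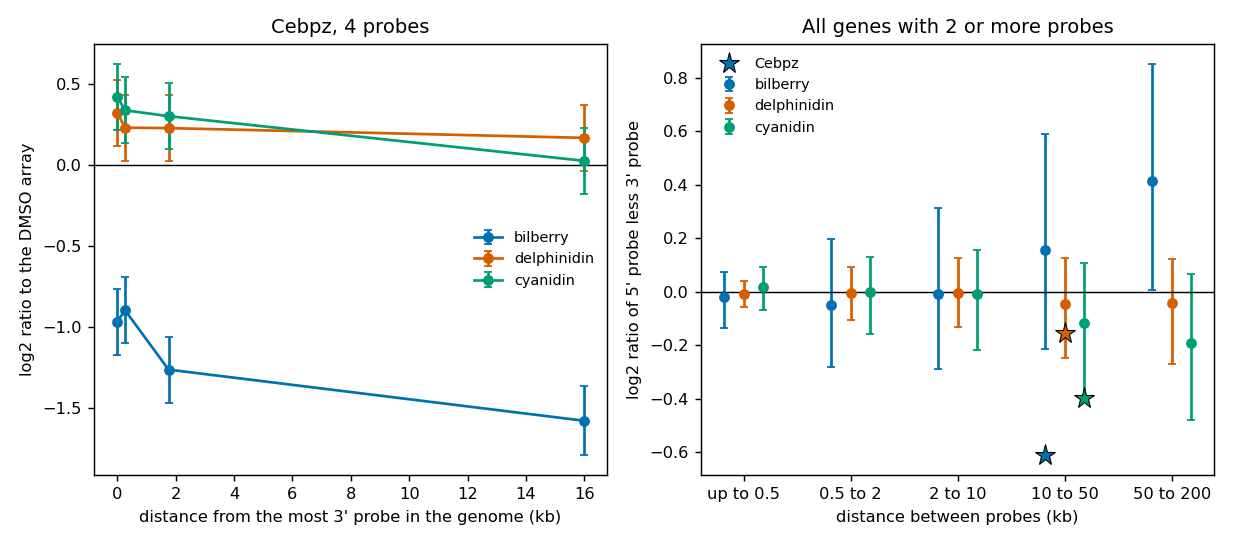
Left, log2 ratio to DMSO of the 4 Cebpz probes by genomic distance from the most 3′ probe, with the software's error. Right, log2 ratio of the most 5′ probe less that of the most 3′ probe for all genes by distance between the probes (points are medians, bars the middle 50% of genes); stars are Cebpz, at -0.61 with bilberry where the median was 0.16; without background subtraction the Cebpz value was 0.55.

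Most of the other nucleolar genes of ribosome assembly had ratios above 0 with the anthocyanidins, and about as many lay above as below 0 with bilberry. Of 29 measured genes, 5 were past 2-fold lower and 1 higher with bilberry, and 0 were past 2-fold with either anthocyanidin. The lower genes were Ddx10, an RNA helicase of ribosome assembly (-1.71), Nop58, a core protein of box C/D snoRNPs (-1.56), Gnl3, the GTPase nucleostemin (-1.35), Dkc1, the pseudouridine synthase dyskerin (-1.34), and Ncl, nucleolin (-1.24). With cyanidin these genes were at -0.02, 0.32, 0.40, 0.44 and 0.33.

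Rrp12, a ribosome export factor, was the gene higher with bilberry (1.04), and Noc2l, a nucleolar protein of ribosome assembly, was at 0.46, 0.18 and 0.31. Noc3l and Noc4l, which share a protein domain with Cebpz and were named after their values were seen, were at -0.39, 0.50 and 0.46 and at -0.23, -0.05 and 0.13. Ratios above 0 were found for 14 of the 29 with bilberry extracts, for 26 with delphinidin and for 27 with cyanidin, where 59.3%, 44.4% and 46.9% of all 17011 genes were above 0. The list's median was -0.15, 0.34 and 0.40, beside 0.15, -0.04 and -0.02 over all genes. The difference of the list's median from that of all genes was -0.30, 0.38 and 0.42, and -0.35, 0.32 and 0.36 under quantile normalization. Under spike-in scaling 24 of the 29 were past 2-fold lower and 0 higher with bilberry. Cebpz was not in this list; its 4 bilberry ratios, -1.58 to -0.90, overlap those of the 5 lower genes, -1.71 to -1.24, at probes 3 and 4 and lie closer to 0 at probes 1 and 2.

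**Figure D5:**
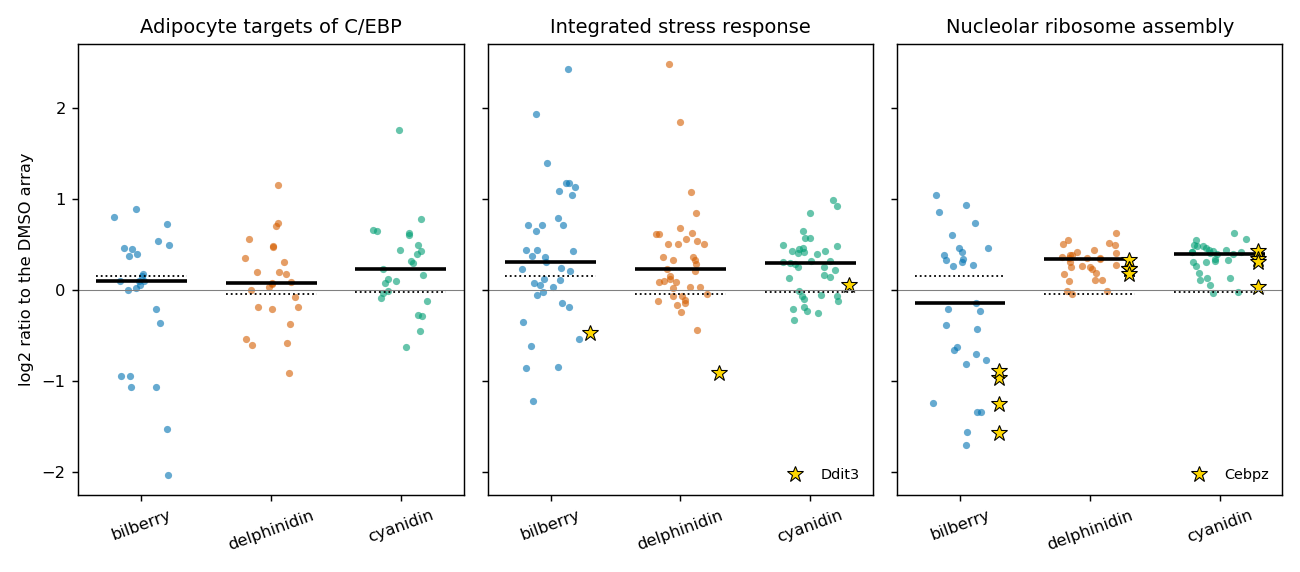
Log2 ratio to DMSO of each measured gene (points) of 3 gene groups with bilberry, delphinidin and cyanidin; thick lines are the group's median, dotted lines the median of all genes, and stars the Ddit3 probe (its delphinidin spot was marked) and the 4 Cebpz probes. The nucleolar genes spread widely with bilberry (median -0.15) and lie mostly above 0 with the anthocyanidins (medians 0.34 and 0.40).

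Delphinidin and cyanidin, which differ by a hydroxyl group on the B ring that delphinidin has and cyanidin lacks, were given at the same dose and time, so this pair can be compared without the DMSO array. Of 12 member probes, 0 were past 2-fold between them, beside 6.36% of all probes and 0.794% of those well above background on all 4 arrays. The delphinidin to cyanidin ratios were 0.24 and 0.25 for Cebpb, 0.03 for Cebpd, -0.12 and -0.14 for Cebpa, 0.23, -0.18 and -0.03 for Cebpg and -0.10, -0.11, -0.07 and 0.14 for Cebpz. The largest came to 1.24 times the software error. The ratios of all these probes except Cebpd and Cebpg probe 3 were larger than the SD of replicate spots (0.031 to 0.038), which is technical, and the spread between cultures was not measured, so these values show neither that the compounds differ nor that they act alike. Only Ddit3 went beyond this, by the marked spot alone.

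The leucine zipper factors outside the family and the proteins that modify C/ebp factors were mostly within 2-fold of DMSO. Of 33 other leucine zipper factors, 4 were higher and 0 lower with bilberry, 1 was higher and 1 lower with delphinidin and 0 were higher with cyanidin. Hlf, a clock-output factor, was at 1.67, 0.84 and 0.37, and Dbp, of the same subfamily, at -0.92, -1.67 and -1.03. Maf was at 1.49, 0.04 and 0.03, and Batf3, an AP-1 factor, at -0.35, -0.38 and -1.09. The other factors in these counts, named after their values were seen, were Bach1 (1.07 with bilberry) and Creb3l1 (1.06 with bilberry and 1.06 with delphinidin). Of 30 modifiers, 1 was higher and 2 lower with bilberry and 0 were past 2-fold with either anthocyanidin. Trib3, given above, was the higher gene. Smarca2, a chromatin remodelling ATPase, was at -1.15 with bilberry extracts, -0.05 with delphinidin and 0.07 with cyanidin. Ep300, a histone acetyltransferase, was at -1.01, -0.23 and -0.63. Most genes of both lists were past 2-fold lower with bilberry under spike-in scaling, which shifted every bilberry ratio by -1.54.

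Acute phase genes are the other classical targets of C/ebpβ and C/ebpδ. Of 16 measured, 3 were lower and 0 higher with bilberry, and 2 were lower and 1 higher with each anthocyanidin. Hp, the haemoglobin carrier haptoglobin, was at -3.18 with bilberry extracts, -2.89 with delphinidin and -1.98 with cyanidin, and Serpina3n, a serpin, at -2.57, -2.60 and -1.74. Il6, the cytokine interleukin 6, was at -1.03, -0.91 and -0.73, whereas the chemokine Ccl2 was at 0.74, 1.09 and 1.22. Hp and Serpina3n were thus lower in all 3 treatments while the ratios of Cebpb and Cebpd lay between -0.31 and 0.54. The list did not move with these 2 genes. Ratios above 0 were found for 8, 4 and 8 of the 16, and the medians were -0.10, -0.18 and -0.02, beside 0.15, -0.04 and -0.02 over all genes. Saa3, named after its values were seen, was at 0.65, 0.81 and 0.67. Spike-in scaling shifted every bilberry ratio by -1.54 here too.

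Cell type markers were measured beside the members. Adipocyte markers, a list that contains Cebpa, had 13 measured genes whose summed scaled signal was 463 with DMSO, 351 with bilberry extracts, 507 with delphinidin and 556 with cyanidin. The sum is led by Fabp4, whose scaled signal was 265, 137, 231 and 258 in that order, and the other 12 genes summed to 198, 213, 276 and 298. With bilberry 8 of the 13 were above 0, and the median ratio was 0.10. Of all 13, 3 were past 2-fold lower with bilberry (Slc2a4, Retn and Adipoq) and 1 higher with each anthocyanidin (Cfd). All 17 preadipocyte markers were measured, with sums of 1072, 1108, 958 and 914. Col1a1 and Col1a2, chains of type I collagen, made up 385, 548, 420 and 368 of these sums, and the other 15 genes summed to 687, 560, 539 and 547, highest with DMSO. Ratios above 0 were found for 5 of the 17 with bilberry extracts, 7 with delphinidin and 1 with cyanidin, and the medians were -0.21, -0.15 and -0.26. Of all 17, 4 were past 2-fold lower with bilberry and 1 with each anthocyanidin. Ly6a, a surface marker of progenitor cells, was at -2.13, -2.25 and -1.08, and Lum, Dcn and Thy1, matrix and surface markers of fibroblasts, were at -1.86, -1.52 and -1.20 with bilberry.

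Of 18 granulocyte markers 6 were measured, with sums of 0.557, 0.953, 0.719 and 0.804, and of 10 macrophage markers 4, with sums of 1.08, 0.896, 0.615 and 0.820. Of the 6 granulocyte markers, 1 was past 2-fold higher with bilberry, 1 with delphinidin and 2 with cyanidin, and 1, Elane, a neutrophil protease well above background on 1 array only, was lower in each treatment and gets no fold. Ratios above 0 were found for 4, 3 and 3 of the 6, and the medians were 0.58, 0.10 and 0.21. Lyz2, a lysozyme of myeloid cells, was at -0.16, -0.04 and -0.10. Of the 4 macrophage markers, 1 was higher and 1 lower with bilberry extracts, 1 was lower with delphinidin and 0 were past 2-fold with cyanidin. S100a8, a granulocyte calcium-binding protein, was at 1.47, 1.11 and 1.12, Mmp9, a gelatinase, at 0.79, 0.23 and 1.21, Aif1, a macrophage protein, at -1.21, -1.05 and -0.63, and Csf1r, the receptor of macrophage growth factor, at 1.16, 0.26 and 0.53. The part of these cell types in the values of the members was not tested.

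The genes nearest to each member probe in their 3 ratios to DMSO were found by Euclidean distance among the 14315 genes with probes well above background on every array; with 3 values per gene this is a description of the 4 arrays. For Cebpz probe 3 these were Ncl, at a distance of 0.04, and Dnttip2, at 0.05, for probe 4 Smc1a and Eea1, for probe 1 Gm5124 and Iqcg, and for probe 2 Iqcg and Ifi202b. The nearest to Cebpb probes 1 and 2 were Punc and Hfe, and Wasl and AK047137, and the nearest to Cebpd were Hrg and Olfr1444. For Cebpa probes 1 and 2 they were Rnf181 and Mpdu1, and Hadhb and Dgcr8. For the 3 Cebpg probes they were Mkx and Lrrc8c, 9130023H24Rik and Agtpbp1, and 2810004N23Rik and Acadsb. Probes of the same gene had different neighbours except for Iqcg at Cebpz. Ddit3, with a marked spot, was left out of this search.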

How the data were processed

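RNA of 4 cultures was measured on 1 array each. The authors labeled the RNA with 1 dye and deposited the output of Feature Extraction 9.5.1.1, an intensity for each spot with the local background subtracted by that software; the build in the file headers is mm8. A table of all arrays, also deposited, repeats this intensity, with a largest relative difference of 0.

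Intensities were scaled to the 75th percentile over the 43379 non-control spots of an array, close to the study's methods, which take the percentile over all measurements (run as an alternative) after setting a floor, and converted to log2. Spots marked as outliers were left out, spots of a probe were averaged, and called means past 2-fold. List genes were represented by their brightest probe with values on all 4 arrays that was well above background on at least 1; symbols were updated by RefSeq accession for 24496 probes. Named genes are all member probes, up to 4 genes per list past 2-fold and well above background on all 4 arrays (all 5 where a counted group had 5, or further genes where a count is spelled out), 7 fixed genes of the pathway (Pparg, Klf5, Fabp4, Adipoq, Atf4, Nr3c1 and Noc2l), and the 2 nearest genes per member probe. Further genes, such as Insr, Lifr, Noc3l, Noc4l, Bach1, Creb3l1, Col1a1, Col1a2, Elane and Lyz2, were named after their values were seen. The members, the gene lists and the alternatives were chosen with earlier results of these data known.

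With 1 array per condition no test was made, and the number of arrays limits precision. The SD of replicate spots was 0.031 to 0.038 on the log2 scale. Calculations were checked on simulated data. Alternatives were quantile, median and spike-in scaling, normexp (offset 50, and a refit), no background subtraction, centring on like or nearby probes, marked spots kept, the deposited table, a 1.5-fold threshold, filters on dim probes and another probe rule. Software was Python 3.11.15, numpy 2.4.6, pandas 2.3.3, matplotlib 3.10.9, R 4.3.3 and limma 3.58.1. 1 result among the other leucine zipper factors is not reported here.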

Additional observations from a re-analysis of the deposited data

Results flagged for a closer look

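The spike-in control RNAs are read by control probes and enter no member ratio in the values reported. They enter only alternatives that use control spots, such as spike-in scaling. Their signal was brighter with bilberry than with DMSO by 0.96 (median log2 processed signal over 10 control probes). The same difference was -0.02 with delphinidin and 0.01 with cyanidin.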

How the results depend on the processing

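The count of member probes past 2-fold with bilberry, 2 in the values reported, was 12 under spike-in scaling, 4 with ratios centred on probes in nearby rows, 4 at a threshold of 1.5, 1 under the refitted normexp and 1 without background subtraction. Cebpz probe 4 with bilberry was reversed under normexp, at 0.38. Under spike-in scaling, genes past 2-fold lower with bilberry numbered 22 among adipocyte targets, 24 in the integrated stress response and 24 in nucleolar ribosome assembly, and those higher 0 in both latter lists; quantile normalization gave 5 higher and 2 lower in the integrated stress response. The counts of member probes past 2-fold with delphinidin, with cyanidin and between them were 0 under all alternatives run. Spike-in scaling moved 38 of 50 member ratios by more than their software error, normexp 8 besides the 1 it reversed, and each other alternative 6 or fewer. Because each condition had 1 array, no replicate could be left out. No paired analysis was possible because each condition had 1 array. The cause of these shifts was not tested. Signal over background limits Cebpz probe 4 with bilberry most, where the processed signal was 68.4.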
